A study of Drosophila melanogaster with 8 samples.

Results

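Mitosis and cytokinesis genes encode the proteins that condense chromosomes, attach them to a microtubule spindle, pull them apart and then cleave the cell. The set was written as a list of 36 gene symbols, including alternative spellings, and every symbol that equalled a gene name in both deposited tables was kept. This gave 32 genes of the 17321 in each table. The 4 spellings without a row (aur, ial, Mad2 and ald) are other names of aurA, aurB, mad2 and Mps1, each of which has a row. By role, the genes are 5 mitotic kinase and passenger complex genes, 4 spindle checkpoint genes, 4 kinetochore genes, 5 condensin and cohesion genes, 8 spindle motor and pole genes and 6 cytokinesis genes.

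RNA was sequenced from whole Drosophila embryos of stages 8 to 16, with 4 groups of 2 libraries each. Quad embryos carried the ubiquitous driver da-Gal4 and UAS transgenes for ase, Kr, wor and SoxN, transcription factors of early neural cells. Their controls, Ctrl, carried da-Gal4 over the wild-type strain OregonR and no UAS transgene. QuadD embryos carried da-Gal4 with 3 of the 4 factors in altered form (ase fused to the activation domain Vp16, wor and SoxN fused to the repression domain EnR) and with Kr. Their own driver-only controls, again da-Gal4 over OregonR, are called Ctrl-D. All 4 groups thus carried da-Gal4, and the strain background of the UAS parent cannot be told apart from the transgenes. Each library came from 50 mg of frozen embryos, so each value is a mean over many pooled embryos of different stages. The labels call the 2 libraries of a group biological replicates without saying more, so p-values measure the spread between these samples.

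In a dividing cell, Polo and Aurora kinases start spindle assembly, and condensin folds the chromosomes. Kinetochores form on the centromere and bind spindle microtubules, while the spindle checkpoint holds back the anaphase promoting complex until all are attached. That complex then marks securin and the mitotic cyclins for destruction, separase cuts cohesin, and a contractile ring positioned by the central spindle divides the cytoplasm. In the fly embryo, neuroblasts, the stem cells of the nervous system, go through many such divisions during these stages, while most epidermal cells stop dividing.

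Levels are given in RPKM, reads scaled by transcript length and library size, as the authors deposited them. The deepest library was QuadD replicate 1. Relative to it, the libraries of Quad and Ctrl had 82.9% to 87.2% of the reads per RPKM unit, while QuadD replicate 2 and both Ctrl-D libraries had 39.6% to 42.5%. Of the factors encoded by the transgenes, wor and ase rose in both experiments. Kr rose in Quad (log2 fold change 1.33 ± 0.15 SE, limma, adjusted p = 0.00123), against 0.07 ± 0.11 in QuadD (adjusted p = 0.637). SoxN had 0.35 ± 0.12 in Quad (adjusted p = 0.0536) and rose by 0.41 ± 0.10 in QuadD (adjusted p = 0.0162). Whether the RPKM values include transgene transcripts was not tested.

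The genes of the set were present in every library, at 9.40 RPKM (Mps1, Ctrl replicate 2) to 1381 RPKM (Ran, QuadD replicate 2). Ran, polo and borr held the 3 highest mean levels in all 4 groups, in that order, and Mps1 and Grip71 the 2 lowest. Ran, the small GTPase whose bound form marks the surroundings of chromatin, had 946.7 and 1103 RPKM in Quad, against 509.3 and 534.8 RPKM in Ctrl. In the other experiment it had 1183 and 1381 RPKM in QuadD and 765.2 and 640.2 RPKM in Ctrl-D. Ran alone therefore made up a large part of the summed level of the set, and fold changes are given gene by gene for that reason.

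In Quad embryos, 31 of the 32 genes rose over Ctrl and none fell. The median log2 fold change of the set was 1.13, against 0.05 for all 10436 genes tested. Fold changes are on the log2(RPKM + 1) scale, and a gene was called at an adjusted p under 0.05 in limma's trended moderated test over all genes tested. In this comparison 24.9% of all genes tested were called higher and 22.6% lower. For 26 of the 32 genes the rise was at least 2-fold, a limit that 6.36% of all genes tested passed. All 32 had both Quad libraries above both Ctrl libraries, as did 41.5% of all genes tested. In whole embryos, more dividing cells and more RNA of these genes in each cell cannot be told apart.

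In QuadD embryos, 31 of the 32 genes rose over Ctrl-D and none fell. The median was 0.85, against 0.03 for all 10207 genes tested. Here 27.4% of all genes tested were called higher and 27.7% lower. Only Cenp-C, glu, ncd, mars and scra, 5 of the 32, rose at least 2-fold, a limit passed by 5.26% of all genes tested. All 32 had both QuadD libraries above both Ctrl-D libraries, as did 42.2% of all genes tested. The gene that did not pass was tacc in both experiments. When genes under 1 RPKM were kept in the test, the fold changes were the same, but 25 of the 32 passed in Quad and 7 in QuadD. Of all 17321 genes then tested, 7.43% were called higher in Quad and 7.44% in QuadD.

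**Figure D1:**
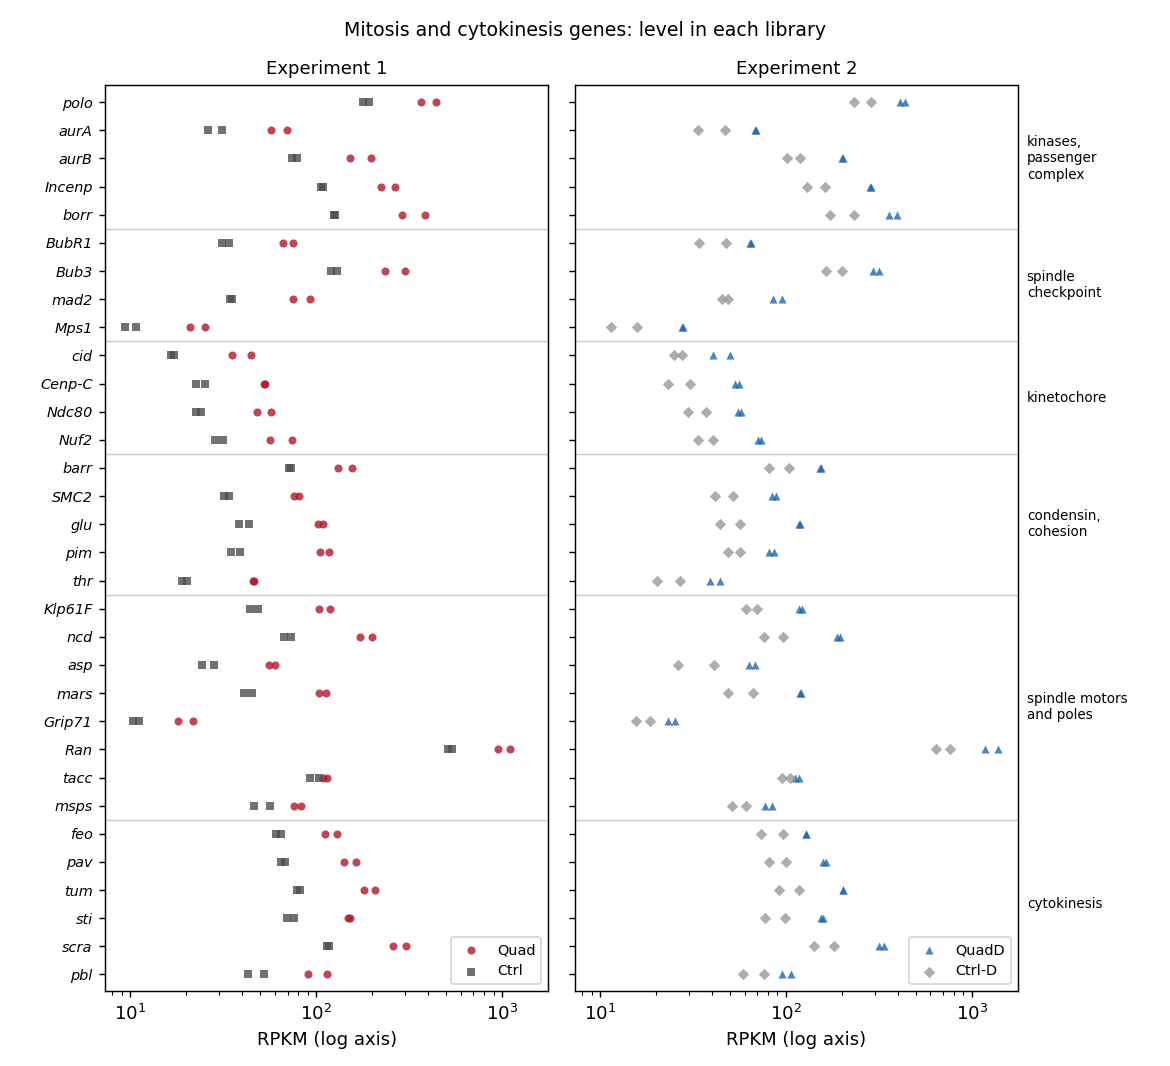
Level of each of the 32 genes in every library, in RPKM on a log axis, with genes grouped by role from the mitotic kinases at the top to cytokinesis at the bottom. Each symbol is 1 library. In both panels the libraries with transgenes lie to the right of their controls for all 32 genes, with the smallest gap at tacc.

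All 5 genes for mitotic kinases and the chromosomal passenger complex rose in both experiments, with medians of 1.17 in Quad and 0.87 in QuadD. The gene polo encodes Polo kinase, which acts in mitotic entry, centrosome maturation and cytokinesis. It had 364.9 and 440.0 RPKM in Quad, against 192.0 and 177.8 RPKM in Ctrl. In the second experiment it had 412.9 and 434.8 RPKM in QuadD, against 287.1 and 232.7 RPKM in Ctrl-D. The groups did not overlap in either experiment, and the rise was 1.11 ± 0.12 in Quad (limma, adjusted p = 0.000927) and 0.71 ± 0.12 in QuadD (adjusted p = 0.00381). Borealin, encoded by borr, is a subunit of the passenger complex that brings Aurora B to centromeres. It had 289.6 and 386.3 RPKM in Quad, against 124.7 and 125.8 RPKM in Ctrl. In the second experiment the values were 359.8 and 396.5 RPKM in QuadD and 233.6 and 172.0 RPKM in Ctrl-D. Its rise of 1.41 ± 0.14 was the second largest of the set in Quad (adjusted p = 0.000867), while its 0.91 ± 0.15 in QuadD ranked 12 of 32 (adjusted p = 0.00397).

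The catalytic subunit of that complex, Aurora B (aurB), had 152.5 and 197.6 RPKM in Quad and 74.0 and 78.4 RPKM in Ctrl. Its values were 199.4 and 202.8 RPKM in QuadD and 119.5 and 101.1 RPKM in Ctrl-D. Its fold change was 1.18 ± 0.14 in Quad and 0.87 ± 0.10 in QuadD, close to those of the scaffold subunit Incenp, 1.17 ± 0.11 and 0.97 ± 0.12. Aurora A (aurA), the kinase of centrosomes and spindle poles, had 57.4 and 69.9 RPKM in Quad, against 31.3 and 26.2 RPKM in Ctrl. It had 68.1 and 69.5 RPKM in QuadD, against 46.8 and 33.7 RPKM in Ctrl-D. The rises of aurA were 1.12 ± 0.15 and 0.78 ± 0.16, and its 2 Ctrl-D libraries differed more from each other than its 2 QuadD libraries did.

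All 4 spindle checkpoint genes rose in both experiments, with medians of 1.10 in Quad and 0.84 in QuadD. Mad2 protein, encoded by mad2, and BubR1 and Bub3 hold back the anaphase promoting complex while kinetochores are unattached. The level of mad2 was 74.5 and 92.4 RPKM in Quad, against 35.0 and 34.2 RPKM in Ctrl. In the second experiment it was 85.6 and 95.7 RPKM in QuadD, against 48.7 and 45.3 RPKM in Ctrl-D. It had the largest rise of the checkpoint genes in Quad, 1.24 ± 0.13 (limma, adjusted p = 0.000954), and rose by 0.93 ± 0.10 in QuadD (adjusted p = 0.000776). Mps1, the kinase that recruits the checkpoint proteins to kinetochores, had 20.8 and 25.1 RPKM in Quad and 10.8 and 9.40 RPKM in Ctrl. It had 27.9 and 27.6 RPKM in QuadD and 15.9 and 11.5 RPKM in Ctrl-D. These were among the lowest levels of the set, and its rises were 1.11 ± 0.17 and 0.99 ± 0.17.

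BubR1 had 65.8 and 75.0 RPKM in Quad and 33.8 and 31.2 RPKM in Ctrl, a rise of 1.09 ± 0.12. It had 64.7 and 64.5 RPKM in QuadD and 47.8 and 34.0 RPKM in Ctrl-D, a rise of 0.67 ± 0.16 (limma, adjusted p = 0.0154). Without QuadD replicate 2 the value was again 0.67, with an adjusted p of 0.0514. Bub3 rose by 1.08 ± 0.13 in Quad and 0.76 ± 0.11 in QuadD. In the reference annotation, 15.9% of the exon bases of Bub3 and 11.5% of those of mad2 lie opposite another gene, ppk19 and kri. Use of strand in the counting is not given in the sources used here. The neighbour kri had -0.08 in Quad (adjusted p = 0.492) and -0.03 in QuadD (adjusted p = 0.773), while ppk19, with means of 11.1 RPKM in Quad and 6.12 RPKM in Ctrl libraries, rose by 0.76 in Quad and 0.59 in QuadD.

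All 4 kinetochore genes rose in both experiments, within a narrow range of 1.09 to 1.18 in Quad and a wider range of 0.74 to 1.00 in QuadD. The centromeric histone H3 variant, encoded by cid, marks where kinetochores form. It had 35.1 and 44.5 RPKM in Quad, against 16.6 and 17.2 RPKM in Ctrl. Its values were 40.4 and 50.0 RPKM in QuadD, against 27.4 and 25.0 RPKM in Ctrl-D. It had the largest rise of the kinetochore genes in Quad, 1.18 ± 0.15, and 0.76 ± 0.13 in QuadD. Cenp-C, which links the centromere to the outer kinetochore, had 52.3 and 53.0 RPKM in Quad and 25.2 and 22.4 RPKM in Ctrl. It had 55.8 and 52.9 RPKM in QuadD and 30.4 and 23.3 RPKM in Ctrl-D, and its rises were 1.12 ± 0.12 and 1.00 ± 0.14. Ndc80 and Nuf2 form part of the complex that holds microtubule ends. Ndc80 rose by 1.14 ± 0.13 and 0.74 ± 0.12, and Nuf2 by 1.09 ± 0.15 and 0.95 ± 0.11, in Quad and in QuadD.

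All 5 condensin and cohesion genes rose in both experiments. Their median was the highest of the 6 roles in Quad, 1.23, and the lowest in QuadD, 0.81. The medians of the 6 roles lay close together, between 1.04 and 1.23 in Quad and between 0.81 and 0.87 in QuadD. The gene glu encodes the SMC4 core subunit of condensin. Its level was 102.7 and 108.9 RPKM in Quad, against 43.6 and 38.5 RPKM in Ctrl. In the second experiment it was 118.9 and 117.4 RPKM in QuadD, against 56.4 and 43.9 RPKM in Ctrl-D. It had the largest rise of all 32 genes in QuadD, 1.23 ± 0.13 (limma, adjusted p = 0.000783), and the fourth largest in Quad, 1.35 ± 0.11 (adjusted p = 0.00043). The other core subunit, SMC2, had 76.1 and 81.1 RPKM in Quad and 33.9 and 31.8 RPKM in Ctrl. It had 88.5 and 84.1 RPKM in QuadD and 51.7 and 41.8 RPKM in Ctrl-D. It rose by 1.23 ± 0.10 and 0.88 ± 0.12, and the linker subunit gene barr rose by 0.97 ± 0.11 and 0.74 ± 0.12.

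Securin, the inhibitor of separase, is encoded by pim, and it gave the largest contrast between the experiments. It had 104.8 and 117.1 RPKM in Quad, against 38.8 and 35.0 RPKM in Ctrl. It had 80.8 and 86.4 RPKM in QuadD, against 56.7 and 48.8 RPKM in Ctrl-D. Its rise was the largest of the 32 genes in Quad, 1.56 ± 0.11 (limma, adjusted p = 0.000289), and ranked 27 of 32 in QuadD, 0.66 ± 0.10 (adjusted p = 0.00337). Both Quad libraries lay above both QuadD libraries, while both Ctrl libraries lay below both Ctrl-D libraries. The gene thr encodes the partner subunit of fly separase. It had 45.6 and 46.0 RPKM in Quad and 20.1 and 19.0 RPKM in Ctrl, and 39.3 and 44.1 RPKM in QuadD and 27.0 and 20.2 RPKM in Ctrl-D. It rose by 1.19 ± 0.12 and 0.81 ± 0.16.

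Of the 8 spindle motor and pole genes, 7 rose in each experiment, and this role held both the weakest genes and some of the strongest. Medians were 1.04 in Quad and 0.87 in QuadD. The minus-end kinesin gene ncd had 171.9 and 198.3 RPKM in Quad, against 73.0 and 66.8 RPKM in Ctrl. It had 196.6 and 189.0 RPKM in QuadD, against 96.5 and 76.1 RPKM in Ctrl-D. Its rises of 1.39 ± 0.11 in Quad (limma, adjusted p = 0.000396) and 1.16 ± 0.12 in QuadD (adjusted p = 0.000842) ranked 3 and 2 of the 32. The bipolar kinesin gene Klp61F, whose product pushes the spindle poles apart, had 104.0 and 119.0 RPKM in Quad and 48.5 and 44.0 RPKM in Ctrl. Its values were 122.5 and 118.2 RPKM in QuadD and 70.0 and 61.0 RPKM in Ctrl-D, and its rises were 1.25 ± 0.11 and 0.87 ± 0.10. The mars gene encodes a microtubule-binding protein of the spindle. It rose by 1.31 ± 0.11 in Quad and 1.06 ± 0.14 in QuadD. Shared exon bases with a gene on the opposite strand were 11.0% for Klp61F, 11.7% for ncd and 12.0% for mars.

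The gene asp, whose product focuses microtubules at spindle poles, had 55.6 and 60.2 RPKM in Quad and 28.3 and 24.3 RPKM in Ctrl. It had 63.1 and 68.5 RPKM in QuadD, against 41.3 and 26.3 RPKM in Ctrl-D. It rose by 1.11 ± 0.13 and 0.97 ± 0.20, with the widest gap between Ctrl-D libraries of all 32 genes on the log2(RPKM + 1) scale. Grip71, which helps to bring gamma-tubulin to the spindle, had 18.0 and 21.8 RPKM in Quad and 11.1 and 10.3 RPKM in Ctrl. It had 23.3 and 25.2 RPKM in QuadD and 18.6 and 15.6 RPKM in Ctrl-D. Its rises were 0.83 ± 0.17 in Quad (limma, adjusted p = 0.00858) and 0.49 ± 0.13 in QuadD (adjusted p = 0.0223). In Quad the call was lost without Ctrl replicate 2 (0.78), and in QuadD without QuadD replicate 1 (0.54), QuadD replicate 2 (0.43) or Ctrl-D replicate 2 (0.37).

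The genes tacc and msps encode partner proteins that bind to each other and stabilise microtubules at centrosomes. The level of tacc was 114.0 and 108.8 RPKM in Quad, against 104.0 and 92.9 RPKM in Ctrl. It was 117.4 and 112.2 RPKM in QuadD, against 95.6 and 105.7 RPKM in Ctrl-D. The groups did not overlap, but the fold changes of 0.18 ± 0.10 in Quad (limma, 95% CI -0.06 to 0.42, adjusted p = 0.182) and 0.19 ± 0.09 in QuadD (CI -0.03 to 0.40, adjusted p = 0.114) did not pass. Without Ctrl-D replicate 2 the QuadD value was 0.26 with an adjusted p of 0.0442. The level of msps was 82.3 and 75.8 RPKM in Quad, against 56.3 and 46.1 RPKM in Ctrl, and 83.8 and 77.4 RPKM in QuadD, against 61.1 and 51.0 RPKM in Ctrl-D. It had the smallest rise of the called genes in Quad, 0.62 ± 0.13 (adjusted p = 0.00943), and rose by 0.52 ± 0.11 in QuadD (adjusted p = 0.0103). Its call was lost in Quad without Ctrl replicate 2 (0.48) and in QuadD without QuadD replicate 1 (0.47). The level of tacc ranked 7 of the 32 genes in Ctrl and 15 in Quad, and that of msps ranked 15 in Ctrl and 21 in Quad.

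All 6 cytokinesis genes rose in both experiments, with medians of 1.14 in Quad and 0.83 in QuadD. Anillin, the scaffold of the contractile ring, is encoded by scra. It had 260.2 and 302.2 RPKM in Quad, against 117.6 and 114.8 RPKM in Ctrl. In the second experiment it had 338.5 and 316.5 RPKM in QuadD, against 181.7 and 141.6 RPKM in Ctrl-D. It rose by 1.26 ± 0.10 in Quad (limma, adjusted p = 0.000446) and 1.02 ± 0.13 in QuadD (adjusted p = 0.00152). The kinesin gene pav and the gene tum encode the subunits of centralspindlin, the complex that bundles the central spindle. The level of tum was 180.5 and 207.8 RPKM in Quad and 82.0 and 78.9 RPKM in Ctrl, and that of pav was 141.3 and 164.4 RPKM in Quad and 67.5 and 64.5 RPKM in Ctrl. Both subunit genes rose by similar amounts, tum by 1.26 ± 0.10 and pav by 1.20 ± 0.11 in Quad, and by 0.96 ± 0.12 and 0.84 ± 0.12 in QuadD.

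The citron kinase gene sti, which acts on the late contractile ring, rose by 1.03 ± 0.09 in Quad and 0.83 ± 0.13 in QuadD. The gene feo encodes a microtubule bundler of the central spindle. It had 110.7 and 129.1 RPKM in Quad and 64.5 and 60.8 RPKM in Ctrl, a rise of 0.92 ± 0.11. It had 127.5 and 128.0 RPKM in QuadD and 96.8 and 73.4 RPKM in Ctrl-D, a rise of 0.59 ± 0.14 (limma, adjusted p = 0.0125). The gene pbl encodes an exchange factor needed for the cleavage furrow. It had 89.8 and 113.8 RPKM in Quad and 52.6 and 42.7 RPKM in Ctrl, a rise of 1.08 ± 0.16. It had 95.5 and 106.6 RPKM in QuadD and 76.2 and 58.6 RPKM in Ctrl-D, a rise of 0.59 ± 0.14 (adjusted p = 0.0143). Without QuadD replicate 2 the QuadD values of feo and pbl were 0.59 and 0.51, with adjusted p of 0.051 and 0.0765.

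**Figure D2:**
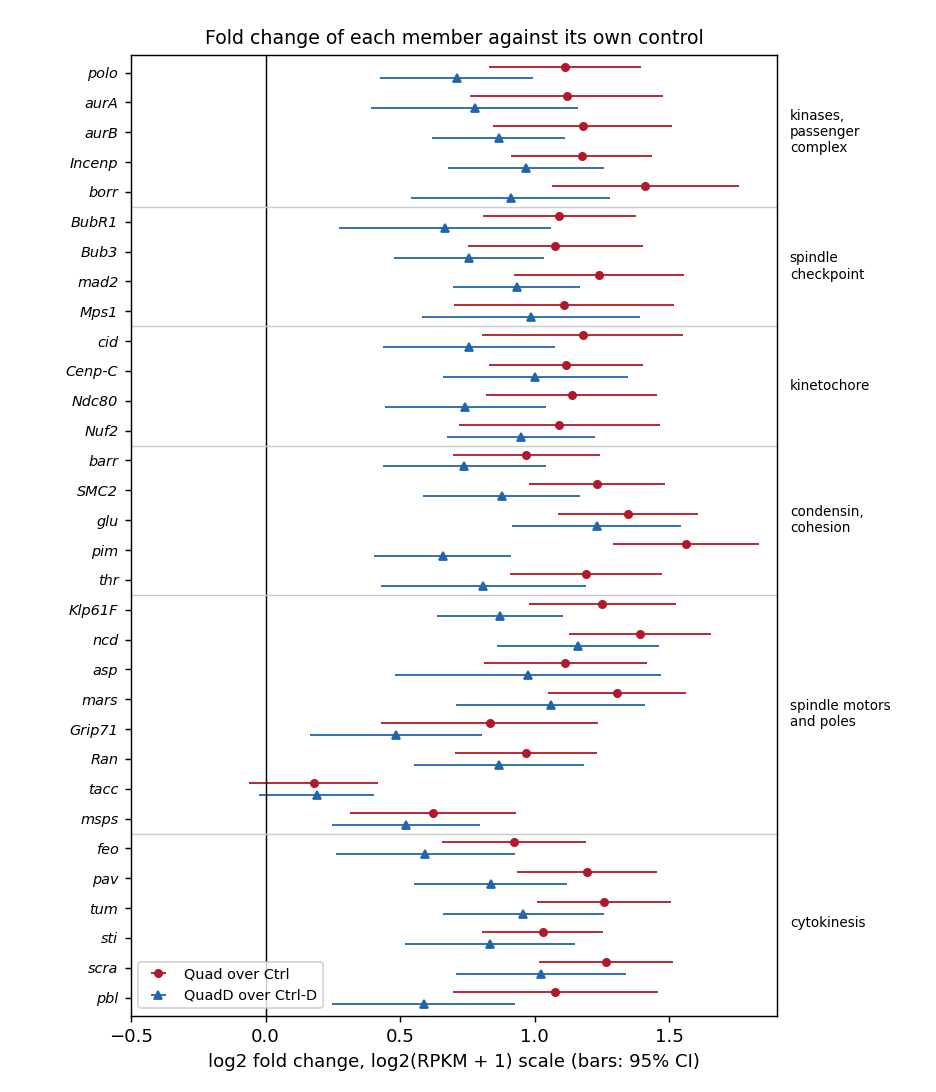
Log2 fold change of each gene on the log2(RPKM + 1) scale, Quad over Ctrl as circles and QuadD over Ctrl-D as triangles, with 95% confidence intervals from limma. All intervals lie above 0 except those of tacc. The circles run from 0.18 at tacc to 1.56 at pim, and the triangles from 0.19 at tacc to 1.23 at glu.

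Across the 32 genes, both experiments ranked the genes in a partly shared order (Pearson r 0.74, Spearman correlation 0.61, n = 32 genes). This is a description, since the genes share the same libraries in each experiment and are not independent replicates. The fold change in Quad had no such relation to the level in Ctrl (Pearson r -0.08, Spearman correlation -0.01), which shares the Ctrl libraries with it. The Quad fold change was the higher for 31 of the 32 genes, and for 6261 of all 10775 genes tested. The exception among the 32 was tacc. These fold changes rest on control levels that differed, since all 32 genes had a lower mean in Ctrl than in Ctrl-D. The difference itself was tested in a fit of all 8 libraries, as the Quad effect minus the QuadD effect. Its median over the set was 0.31, against 0.06 for all 10775 genes tested. Only pim passed as higher in Quad, and none passed as lower. Of all genes tested, 1.76% passed as higher and 0.937% as lower. Without adjustment, 3 of the 32 genes had p under 0.05, namely pim, polo and Klp61F, a share below the 16.3% of all genes tested.

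For pim the difference was 0.90 ± 0.15 (limma, 95% CI 0.55 to 1.26, adjusted p = 0.0182). The call depended on single libraries. It was lost without Ctrl replicate 1 (0.98), Ctrl replicate 2 (0.83), QuadD replicate 1 (0.86), QuadD replicate 2 (0.95) or Ctrl-D replicate 1 (0.80), and the adjusted p then lay between 0.0519 and 0.0977. The next largest differences were 0.50 ± 0.23 for borr (adjusted p = 0.334), 0.49 ± 0.23 for pbl (adjusted p = 0.343) and 0.42 ± 0.21 for BubR1 (adjusted p = 0.377).

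**Figure D3:**
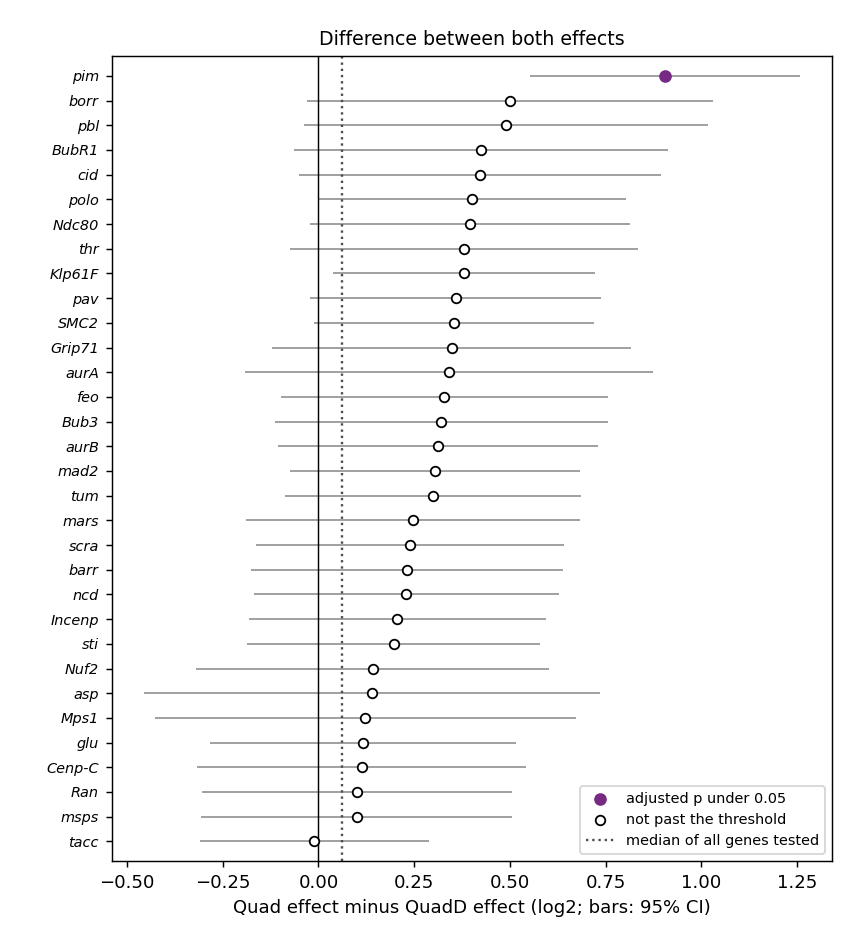
Quad effect minus QuadD effect for each gene, in log2 units, with 95% confidence intervals from limma. The filled symbol is pim at 0.90, the gene past the threshold, and the dotted line is the median of all genes tested at 0.06. Of the 32 genes, 31 lie above 0, as do 6261 of all 10775 genes tested, and tacc lies at -0.01.

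The control levels differed between the experiments. The driver-only embryos of the 2 experiments have the same labelled genotype, and experiment and sequencing lane cannot be told apart. All 32 genes had a lower mean in Ctrl than in Ctrl-D, with a median log2 fold change of -0.43, against -0.01 for all 10775 genes tested. For 28 of the 32 genes both Ctrl libraries lay below both Ctrl-D libraries, as for 31.2% of all genes tested. None of the 32 passed the adjusted threshold in limma in either direction, while 23 had an unadjusted p under 0.05, as did 25.4% of all genes tested. Of all genes tested, 0.483% passed as lower in Ctrl and 0.752% as higher. Leaving out Quad replicate 1 or Quad replicate 2, which changes the shared estimate of spread, gave 13 of the 32 as lower in Ctrl in each case, beside 486 of 10663 and 489 of 10676 genes tested. The largest differences were those of borr (-0.67 ± 0.16, adjusted p = 0.0694), Grip71 (-0.63 ± 0.15, adjusted p = 0.0657) and cid (-0.60 ± 0.15, adjusted p = 0.0692). Comparing the transgene groups directly, 11 of the 32 genes had both Quad libraries below both QuadD libraries, as did 25.3% of all genes tested. Both Quad libraries lay above for 3 of the 32, BubR1, pim and thr, against 31.5% of all genes tested.

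Replicates also differed along the whole set. In Ctrl-D, 31 of the 32 genes were higher in replicate 1 than in replicate 2, with a median difference of -0.33 for replicate 2 minus replicate 1, against 0.01 for all genes. In Quad, 29 of the 32 were higher in replicate 2, with a median of 0.22, against 0.00 for all genes. The medians were -0.11 in Ctrl and 0.00 in QuadD. Within Ctrl-D, the median difference was 0.42 for the late epidermis and cuticle genes, opposite in sign to that of the mitosis genes. In Quad it was -0.88 for the neuron genes and -1.10 for the muscle genes. The part of these differences in the results was not tested. Without Ctrl-D replicate 1 the median of the set in QuadD over Ctrl-D was 0.99, and without Ctrl-D replicate 2 it was 0.69. The difference between the effects had a median of 0.13 without Ctrl-D replicate 1 and of 0.46 without Ctrl-D replicate 2, and that of Ctrl over Ctrl-D was -0.25 and -0.60.

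The other genes of the mitotic machinery were taken as 6 lists with 101 genes, none of them in the set, of which 99 had a row. In Quad, 96 were tested, of which 71 rose, 2 fell and 23 did not pass, with a median of 0.67. In QuadD, 97 were tested, of which 69 rose, 5 fell and 23 did not pass, with a median of 0.58. Both medians lie below those of the 32 genes and above those of all genes tested. Over all genes tested, 24.9% were called higher and 22.6% lower in Quad. In QuadD the shares were 27.4% and 27.7%, and the counts of each list below stand beside these same shares.

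Of 12 tested genes of the anaphase promoting complex and its regulators, 11 rose in each experiment, with medians of 0.72 in Quad and 0.61 in QuadD. The exception was rap, the fly Cdh1 activator of the complex, which acts after mitosis and in cells that leave the cycle. It had 156.5 and 157.7 RPKM in Quad and 164.2 and 139.9 RPKM in Ctrl. The mitotic activator gene fzy, the fly Cdc20, had 255.0 and 320.0 RPKM in Quad and 146.6 and 141.9 RPKM in Ctrl, a rise of 0.98 ± 0.12. It rose by 0.56 ± 0.16 in QuadD. Rca1, an inhibitor of the Cdh1 form, rose by 0.97 ± 0.13 in Quad and 0.78 ± 0.12 in QuadD, and the subunit gene APC4 by 1.03 ± 0.17 and 0.75 ± 0.13.

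Of the 15 other condensin and cohesin genes, 12 rose in Quad and 11 in QuadD, with medians of 0.57 and 0.53. The condensin subunit gene Cap-D2 had 97.4 and 110.0 RPKM in Quad, against 44.0 and 41.6 RPKM in Ctrl, and rose by 1.25 ± 0.11 in Quad and 1.02 ± 0.15 in QuadD. Cap-G rose by 1.02 ± 0.09 in Quad and 0.88 ± 0.14 in QuadD. The cohesin core gene SMC3 rose less, by 0.53 ± 0.11 and 0.62 ± 0.09, and dmt, which protects cohesion, by 0.75 ± 0.10 and 0.68 ± 0.09. Cap-D3, a condensin II subunit gene, had 0.53 ± 0.18 in Quad (limma, adjusted p = 0.0545) and rose by 0.42 ± 0.14 in QuadD (adjusted p = 0.0454). Cap-H2, another condensin II subunit gene, and Nipped-B, which loads cohesin, passed in neither experiment.

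Of the 15 other kinetochore and checkpoint genes, 13 rose in each experiment, and Bub1 and cana, a CENP-E-type kinesin gene, did not pass. The medians were 0.94 in Quad and 0.71 in QuadD. Kmn1, a kinetochore subunit gene, had 89.0 and 108.5 RPKM in Quad, against 36.6 and 34.4 RPKM in Ctrl. It rose by 1.44 ± 0.13 in Quad and 0.94 ± 0.10 in QuadD. Spc25, a partner of Ndc80 and Nuf2, rose by 1.15 ± 0.12 and 0.73 ± 0.10, and Zw10, of the complex that recruits dynein to kinetochores, by 0.76 ± 0.13 and 0.86 ± 0.09.

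Of the other spindle motor and fibre genes, 16 of 18 tested rose in Quad and 17 of 19 in QuadD, with medians of 0.97 and 0.68. The augmin subunit genes msd5 and msd1, whose complex nucleates microtubules inside the spindle, had the smallest p in both experiments. The level of msd5 was 39.8 and 40.8 RPKM in Quad, against 13.7 and 12.9 RPKM in Ctrl, and it rose by 1.53 ± 0.13 in Quad and 1.06 ± 0.10 in QuadD. The rises of msd1 were 1.47 ± 0.12 and 0.99 ± 0.09. Another augmin subunit gene, dgt4, had the largest fold change of the list in QuadD, 1.25 ± 0.12, and rose by 1.15 ± 0.13 in Quad. Kmn1, msd1 and msd5 were also the pathway genes that passed as lower in Ctrl than in Ctrl-D, by -0.78 ± 0.12, -0.69 ± 0.11 and -0.62 ± 0.10 (limma, adjusted p = 0.0259, 0.0259 and 0.0329).

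Of the 16 centrosome and gamma-tubulin ring genes, 12 rose in Quad and 11 in QuadD, with medians of 0.77 and 0.60. The gene ana2, needed to build centrioles, had 14.5 and 13.4 RPKM in Quad, against 4.73 and 4.77 RPKM in Ctrl. It rose by 1.38 ± 0.17 in Quad and 1.63 ± 0.18 in QuadD. The centriole kinase gene SAK rose by 1.02 ± 0.12 and 0.63 ± 0.12. The pericentriolar matrix genes spd-2 and cnn rose by 1.09 ± 0.12 and 0.85 ± 0.12 in Quad and by 0.94 ± 0.17 and 0.87 ± 0.09 in QuadD. The ring subunit genes Grip91 and Grip163, gammaTub37C and the pericentriolar gene Plp did not pass in either experiment. Plp had the lowest values of the list, -0.75 ± 0.30 in Quad (limma, adjusted p = 0.0797) and -0.43 ± 0.25 in QuadD (adjusted p = 0.191).

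The contractile ring and abscission list, whose actomyosin, septin and membrane traffic genes also act outside division, was the least raised. Of its 20 genes, 7 rose and 2 fell in Quad, and 6 rose and 5 fell in QuadD, with medians of 0.21 and 0.19. Of all genes tested, 24.9% were called higher and 22.6% lower in Quad, and 27.4% higher and 27.7% lower in QuadD. The counts of the list in QuadD are near these shares. In Quad, a somewhat larger share of the list rose and a smaller share fell than of all genes tested. The kinesin gene neb had 43.7 and 55.9 RPKM in Quad, against 24.0 and 23.2 RPKM in Ctrl, and rose by 1.04 ± 0.15 in Quad and 0.90 ± 0.12 in QuadD. The septin gene pnut rose by 0.61 ± 0.08 and 0.69 ± 0.09. The formin gene dia, the myosin II heavy chain gene zip and the kinase gene Rok passed in neither experiment. In both experiments Cdep (-0.73 ± 0.11 in Quad, -0.69 ± 0.11 in QuadD) and the Golgi gene sau (-0.42 ± 0.09, -0.66 ± 0.09) fell, and Fim, Rab11 and nuf fell in QuadD.

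**Figure D4:**
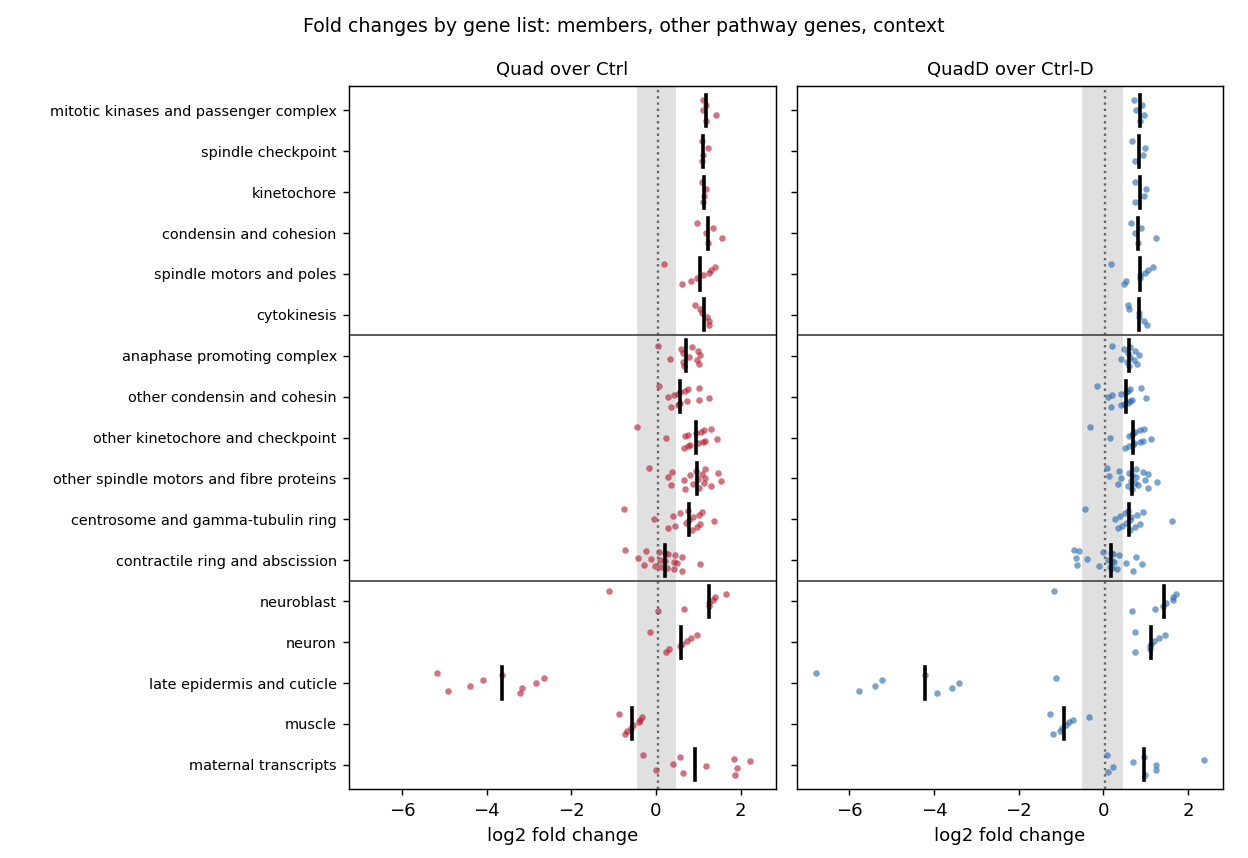
Log2 fold changes of the 32 genes by role (top block), of the other mitotic genes by list (middle block) and of markers of other cell types and of maternal RNA (bottom block), with Quad over Ctrl at the left and QuadD over Ctrl-D at the right. Each point is 1 gene, black bars are list medians, the grey band spans the quartiles of all genes tested and the dotted line is their median. The medians of the 6 roles lie between 1.04 and 1.23 in Quad and between 0.81 and 0.87 in QuadD, and the contractile ring list lies lowest of the mitotic lists, at 0.21 and 0.19.

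Markers of other cell types were set beside the same contrasts, in which 24.9% of all genes tested were called higher and 22.6% lower in Quad, and 27.4% and 27.7% in QuadD. Of 8 neuroblast genes, 6 rose and 1 (grh) fell in Quad, and 7 rose and 1 (grh) fell in QuadD, with summed levels of 1271 to 1313 RPKM in Quad, 568 to 622 RPKM in Ctrl, 1666 to 1681 RPKM in QuadD and 639 to 755 RPKM in Ctrl-D. Of 8 neuron genes, 3 rose in Quad and all 8 in QuadD, with sums of 593 to 838 RPKM in Quad, 429 to 454 RPKM in Ctrl, 862 to 892 RPKM in QuadD and 413 to 419 RPKM in Ctrl-D. The 9 tested genes of late epidermis and cuticle fell in both experiments. The sum over that list's 10 genes was 78.8 to 102 RPKM in Quad, against 1386 to 1964 RPKM in Ctrl, and 21.2 to 26.0 RPKM in QuadD, against 891 to 1186 RPKM in Ctrl-D. Of 8 muscle genes, 1 fell in Quad and all 8 in QuadD. Their sums were 1788 to 3410 RPKM in Quad, 2970 to 4177 RPKM in Ctrl, 1099 to 1284 RPKM in QuadD and 1927 to 2263 RPKM in Ctrl-D.

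Of 10 maternal transcripts, taken as markers of RNA of younger embryos, 7 rose in Quad, and 5 of the 9 tested rose in QuadD. Whether they track embryo stage in these libraries was not tested. Their sums were 294 to 337 RPKM in Quad, 169 to 182 RPKM in Ctrl, 268 to 311 RPKM in QuadD and 163 to 184 RPKM in Ctrl-D. Most of the sum in Ctrl came from stau and gcl. The rise of stau was 0.56 ± 0.10 in Quad and 0.70 ± 0.09 in QuadD. For gcl the values were 0.01 ± 0.10 and 0.23 ± 0.09, and gcl, nos and png passed in neither experiment. The genes smg, bcd, pgc and gnu rose in both, and plu in Quad only. The gene osk rose in Quad and was not tested in QuadD. There it had 0.407 and 3.35 RPKM, against 0.401 and 0.419 RPKM in Ctrl-D. No marker of these 5 lists was at the floor of the files in any library, and Ddc, osk, bcd, plu, knk, ImpE1 and ple were under 1 RPKM in at least 1 library. The summed level of the 32 mitosis genes was 4665 and 5453 RPKM in Quad and 2377 and 2293 RPKM in Ctrl, and 5501 and 5768 RPKM in QuadD and 3478 and 2820 RPKM in Ctrl-D. The part of cell type make-up and of embryo stage in the rises of the mitosis genes was not tested.

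**Figure D5:**
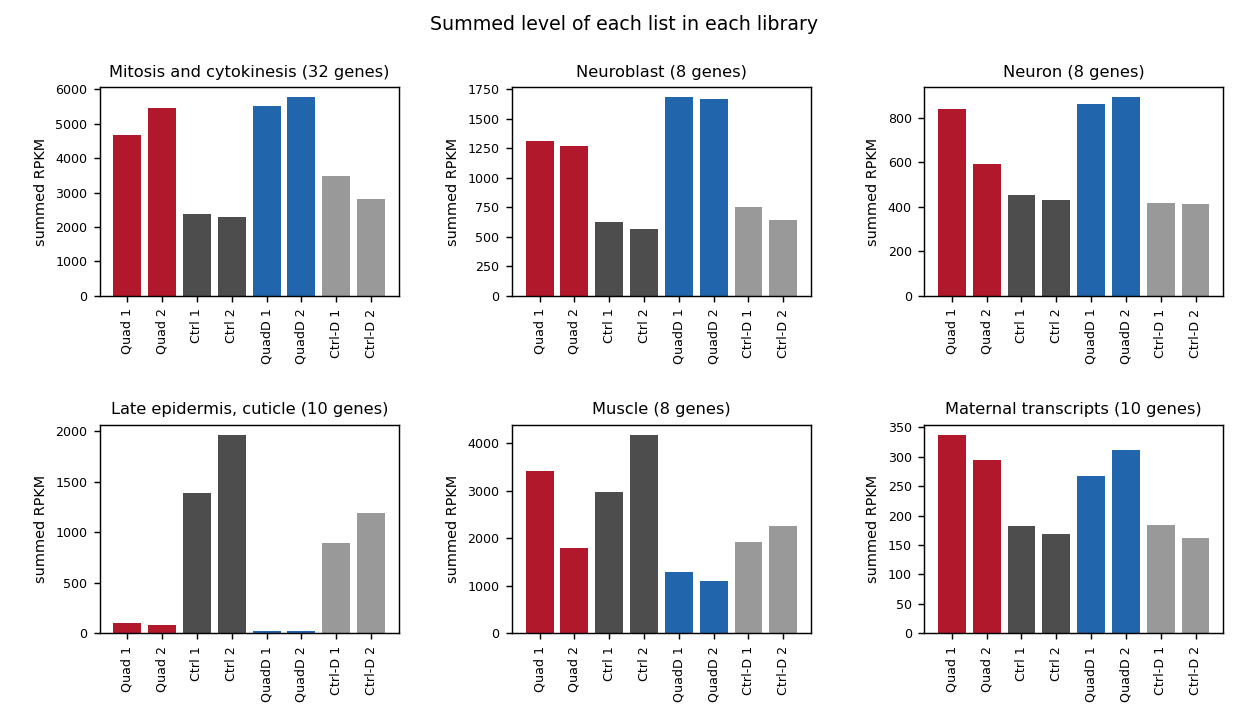
Summed RPKM of the 32 mitosis and cytokinesis genes and of 5 marker lists in each of the 8 libraries, 1 bar per library, on linear axes that start at 0. The mitosis genes and the neuroblast, neuron and maternal lists are higher in both transgene groups than in their controls. Most of the maternal sum in Ctrl comes from stau and gcl. The late epidermis and cuticle list is lower, and the muscle list differs most between the 2 Quad libraries, at 3410 and 1788 RPKM.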

How the data were processed

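RNA of 8 libraries was measured by single reads of 50 bp, with 1 lane per experiment, per the labels' protocols. Per the file headers, the authors deposited linear RPKM per gene and library, log2 of these RPKM values, and a raw count column. A further 8 columns of fold changes between single libraries were not used. Strand use, aligner, gene models and build: not given in the sources used here. Coordinates are therefore not printed. The deposited counts are incomplete: of the 32 members, 15 had whole counts (at least 20, in constant ratio to RPKM to 1% or 1 count), 11 had 0 in every library and 6 had part of their reads. A dash replaces the count of 414 genes, so the planned test on counts was not made, and limma voom took its place, on 3010 genes with whole counts, which was decided after seeing the files. Deposited counts summed to 2765722 to 6740835 per library.

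Values were analysed as log2(RPKM + 1) with limma 3.58.1 in R 4.3.3 (trended moderated test, Benjamini-Hochberg adjustment over all genes tested, threshold 0.05). A gene entered a fit if 2 or more of its libraries reached 1 RPKM. Quad was fitted with Ctrl and QuadD with Ctrl-D, 4 libraries each, and the other comparisons used all 8. Members and lists were chosen with earlier results of these data known, so their counts are descriptions. All members are named, as are up to 2 genes per pathway list and experiment with the smallest p, and other pathway genes were named after their values were seen. Symbols lmg and Bld10 had no match, and fzr was matched as rap. The reference annotation served only for exon overlaps: 14 members share exon bases with another gene, 5 of them at least 10%. Promoter sequence was not analysed here. Alternatives were another pseudocount (0.1), no filter or a filter at 5 RPKM, RLE and quantile scaling, no trend, all 8 libraries, a replicate block and leaving out each library.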

Additional observations from a re-analysis of the deposited data

Results flagged for a closer look

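The securin gene pim stood out because its response differed between the experiments by a test of the difference itself: the Quad effect minus the QuadD effect was 0.9046 on the log2 scale (limma, adjusted p = 0.0182). The call was lost with no filter on low values (adjusted p = 0.101), with no trend (0.0554), with the replicate block (0.0631) and without any of 5 single libraries (0.0519 to 0.0977). Both Quad libraries (104.8 and 117.1 RPKM) lay above both QuadD libraries (80.8 and 86.4 RPKM), and both Ctrl libraries (38.8 and 35.0 RPKM) lay below both Ctrl-D libraries (56.7 and 48.8 RPKM). By construction, the tested value is the direct gap between Quad and QuadD minus the gap between the control groups. For pim the control gap, Ctrl over Ctrl-D, was -0.50 ± 0.11 (limma, adjusted p = 0.0566). The direct gap between Quad and QuadD was not tested.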

How the results depend on the processing

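With other pseudocounts, scalings, a filter at 5 RPKM, no trend, all 8 libraries or the replicate block, 31 of the 32 genes rose in both experiments, and none fell under any alternative. Without a filter, 25 rose in Quad and 7 in QuadD, with the same fold changes, when all 17321 genes were tested. Of those 17321 genes, 7.43% were called higher in Quad and 7.44% in QuadD. With voom, 15 of the 15 genes with whole counts rose in each experiment. Of all 3010 genes in that fit, 36% were called higher in Quad and 32.5% in QuadD. Leaving out each library gave a median of the set of 1.03 to 1.26 in Quad and of 0.69 to 0.99 in QuadD. Some genes then lost their call, as named above. For the difference of effects, 0 genes passed with no filter, no trend or the replicate block, and 0 to 1 when a library was left out (median 0.13 to 0.46). For pim the adjusted p was 0.101 with no filter, 0.0554 with no trend and 0.0631 with the replicate block. For Ctrl over Ctrl-D, leaving out a library gave 0 to 13 lower (median -0.60 to -0.25). Quantile scaling moved the median of all genes in QuadD to 0.14, against a median of 0.86 for the set.

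The labels do not say whether same-numbered libraries of different groups belong together. Deviations of same-numbered libraries correlated at -0.04 between Quad and Ctrl and at -0.09 between QuadD and Ctrl-D. With 2 libraries per group these values cannot decide whether the libraries were paired. The replicate block moved the count of all genes called higher to 2442 in Quad and 2605 in QuadD. Over all genes, 2601 were higher in Quad and 2794 in QuadD. These counts were 1287 and 1289 with no filter, 1467 and 1278 in Quad without Ctrl replicate 1 and 2, and 1615 and 1259 in QuadD without QuadD replicate 1 and 2. For Ctrl over Ctrl-D, 81 genes were higher and 52 lower, against 10 and 1 with the replicate block, 28 and 2 with no trend and 4 to 494 higher and 0 to 489 lower when a library was left out. For the difference of effects, 190 were higher and 101 lower, against 118 and 56 with the replicate block, 111 and 75 with no filter and 89 to 245 and 37 to 250 when a library was left out. A fit that leaves out a library leaves 1 in its group, which is assumed to vary like the other groups. With 2 libraries per group, and less depth in Ctrl-D and QuadD replicate 2, small differences between the effects are poorly resolved.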
